A study of Rattus norvegicus with 12 samples.

Results

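Cells exposed to SIN-1 for 8 h were set against cells exposed for 70 min, to ask which transcripts still differed between an early and a late time of the same oxidant treatment. The comparison used 6 of the 12 arrays of the series, 3 labelled 8 h and 3 labelled 70 min, and covered 18166 genes. A gene entered if the platform's probe table gave its probe a single symbol, and of several probes with one symbol the brightest on average across the series stood for the gene. Both groups were wild-type primary rat cardiomyocytes, per the labels, kept in DMEM/F12 medium with fetal bovine and horse serum, and both received SIN-1. The other 6 arrays were 3 of control cells and 3 of cells treated for 4 h. The labels give no SIN-1 dose, no vehicle and no harvest time for the control cells, and no age or strain of the rats. Triplicates are described as biological in the design text, which does not say that cultures were separate, so the p-values measure the spread between these arrays.

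SIN-1 (3-morpholinosydnonimine) decomposes in medium and releases nitric oxide and superoxide, which combine to peroxynitrite, a short-lived oxidant that oxidises thiols and haem, nitrates tyrosines and breaks DNA strands. Cells answer such an oxidant in waves. Immediate early transcription factors come first, while enzymes that conjugate, export or reduce reactive products, many of them controlled by the factor NRF2, are made over the following hours. A comparison of a late with an early time of treatment therefore mixes genes that were induced early and came back with genes that were repressed early and recovered, and the control level of each gene is given beside it where it helps to tell these patterns apart.

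The labelled cell type was checked against its markers. Of 15 cardiomyocyte markers 14 were measured, and 9 of these had a mean level below the median gene (5.75 on the log2 scale), 3 of them below the median of the probes that carry no gene name (4.33). The heavy chain gene Myh6 averaged 4.14 at 70 min and 3.24 at 8 h, Myh7 averaged 3.50 and 3.72, and the calcium release channel gene Ryr2 averaged 4.2 and 4.11. The thin filament gene Tnnt2 was at 5.82 and 5.86, and Pln, the inhibitor of the calcium pump, at 8.07 and 7.80. Most of the defining contractile transcripts of the label were thus at low levels in both groups. The mesenchymal transcripts Vim, Fn1 and Col1a1, the brightest of 15 fibroblast markers, averaged 13.1, 12.9 and 12.8 at 70 min. Of the 15 fibroblast markers, 5 had a mean level below the median gene. Dcn, for example, averaged 5.11 at 70 min and 6.32 at 8 h. The mean level over 15 fibroblast markers was 8.78 to 8.82 in the 70 min arrays and 9.02 to 9.13 in the 8 h arrays, and that over the cardiomyocyte markers was 5.11 to 5.39 and 5.06 to 5.23. In bulk RNA, fewer cells of a type and less RNA per cell cannot be told apart.

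Between 70 min and 8 h, 2550 genes were called at an adjusted p under 0.05 (14.0% of the genes tested), 1523 of them higher at 8 h (8.38%) and 1027 lower (5.65%). The differences were mostly modest: the median was 0.49 on the log2 scale among genes called higher and −0.47 among genes called lower, and 129 genes (0.710%) were both called and at least 2-fold apart, 91 higher and 38 lower. The 8 h and 70 min values did not overlap in 5616 genes (30.9% of all), and in 2521 of the 2550 called. Bright genes were called more often than dim ones, 29.5% of the brightest of 4 equal groups of genes ordered by level against 2.0% of the dimmest. The count of calls depended on single arrays: it was 1513 without 70 min replicate 3 and 1307 without 8 h replicate 2, and 994 genes were higher without 70 min replicate 2. Array medians, taken over every probe, were 5.00, 5.11 and 5.12 at 70 min and 5.00, 4.99 and 5.01 at 8 h, a difference of −0.079 (two-sided exact permutation p = 0.2, where 3 arrays against 3 cannot go below 0.1). With each array centred on its median, 76.9% of calls were higher at 8 h in place of 59.7%, while adjusting for the array median left 818 calls, 46.8% of them higher. Without the 3 arrays whose median was high (70 min replicates 2 and 3 and 4 h replicate 3), 49.6% of 1181 calls were higher. That fit used the 9 other arrays in all groups, with the lone 70 min array assumed to vary like the other groups.

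**Figure D1:**
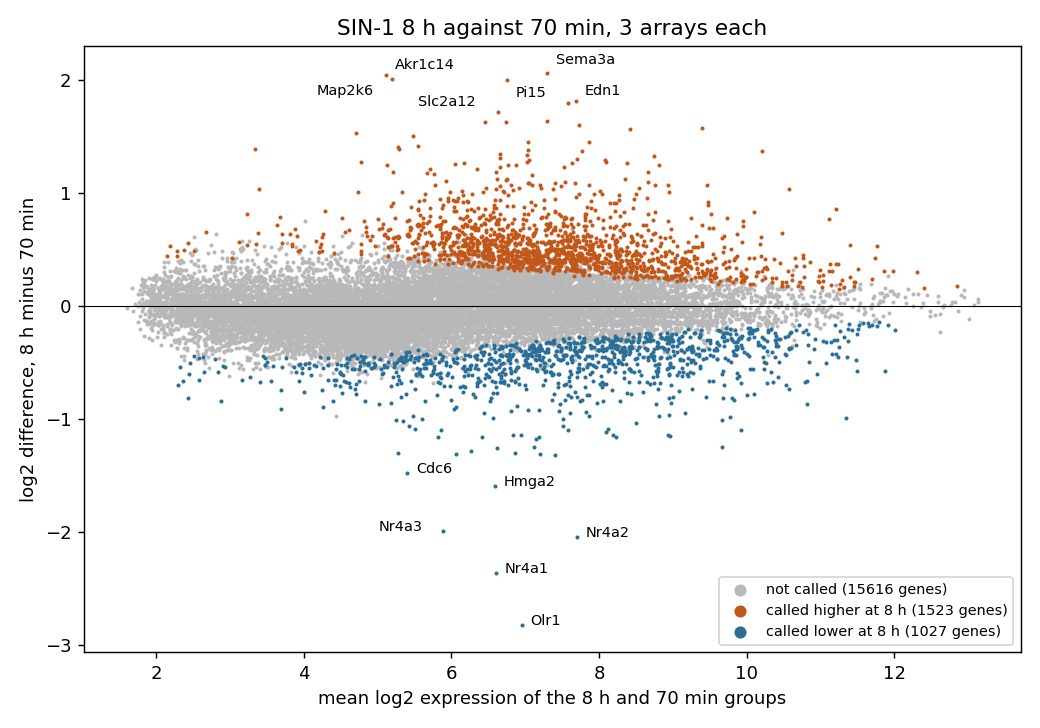
Each point is 1 of 18166 genes, plotted by its mean log2 expression over the 8 h and 70 min groups and by the log2 difference between them. Among the labelled genes, Olr1 and the 3 Nr4a genes lie lowest, and Sema3a, Akr1c14, Map2k6 and Pi15 lie highest, at 2.00 or more.

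The leading genes, 12 in each direction, were chosen among called genes whose 8 h and 70 min values did not overlap. Their mean in the brighter group had to be at least 5.75, the median gene. Among them Olr1, which encodes LOX-1, a scavenger receptor for oxidised lipoprotein, had the largest fall. It read 8.45, 8.24 and 8.38 in the 70 min arrays and 5.48, 5.72 and 5.43 in the 8 h arrays. No array of one group came near the other, and the level was 7.04-fold lower at 8 h (log2 difference −2.82 ± 0.11 SE, adjusted p = 6.69e-08). The orphan nuclear receptor genes Nr4a1, Nr4a2 and Nr4a3, which are switched on within an hour by many stimuli, followed. Nr4a1 read 7.76, 7.67 and 7.90 at 70 min and 5.31, 5.57 and 5.38 at 8 h, 5.12-fold lower (−2.36 ± 0.11, adjusted p = 1.47e-07). Nr4a2 was 4.10-fold lower and Nr4a3 3.97-fold lower. In all 3 receptor genes the 8 h mean lay close to the control mean, 5.42 against 5.40 for Nr4a1, 6.68 against 6.81 for Nr4a2 and 4.90 against 4.94 for Nr4a3.

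The other genes among the 12 leading falls belonged to growth and cell cycle or had mixed roles. Hmga2, a chromatin protein of proliferating and embryonic cells, fell by 1.59 on the log2 scale from 7.54, 7.14 and 7.47 to 5.90, 5.71 and 5.78. Cdc6 and Dtl, which license and police replication origins, and the cyclin gene Ccne2 fell by 1.48, 1.31 and 1.28. Id2, which blocks DNA binding by helix-loop-helix factors, and Rasgrp3, an exchange factor that activates Ras, each fell by 1.3, the monocarboxylate transporter family gene Slc16a14 by 1.31 and the galactosidase-like gene Glb1l2 by 1.32. Ccne2 had the widest spread of the 12 at 70 min, with values of 7.34, 6.49 and 6.91. Its 8 h values were 5.42, 5.78 and 5.69 (adjusted p = 0.000567). The other 11 had adjusted p-values of 5.40e-05 or less.

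Sema3a, Akr1c14, Map2k6 and Pi15 had the largest measured differences among the leading genes that were higher at 8 h. They lay at 2.00 to 2.06 on the log2 scale, and no order is read among them. Sema3a encodes a secreted semaphorin that repels axons and patterns cardiac nerves, and it read 6.59, 6.09 and 6.14 at 70 min and 7.92, 8.34 and 8.72 at 8 h, a 4.16-fold difference (2.06 ± 0.18 SE, adjusted p = 1.20e-05). The 8 h arrays were spread, and the lowest of them lay above every 70 min array, as the choice of leading genes required. Akr1c14, an aldo-keto reductase that acts on steroids, read 4.23, 4.13 and 3.92 at 70 min and 5.87, 6.26 and 6.29 at 8 h. Map2k6, a kinase that activates p38, read 4.14, 4.44 and 3.98 at 70 min and 6.21, 6.12 and 6.27 at 8 h. The 70 min means of these 2 genes, 4.09 and 4.19, lay below the median of unnamed probes (4.33), and both met the level asked of leading genes through the 8 h group. Akr1c15, with a 70 min mean of 5.64, also met it through the 8 h group. Olr1, Nr4a1, Nr4a3, Cdc6, Slc16a14, Id2 and Ccne2 met it through the 70 min group. Their 8 h means ran from 4.62 in Id2 to 5.63 in Ccne2. Detection calls were not used here, so no fold is given for either, and the measured differences of 2.05 and 2.01 may be lower bounds. Pi15, a secreted protease inhibitor, was 3.99-fold higher, with 70 min values of 5.93, 5.53 and 5.80 and 8 h values of 7.37, 7.79 and 8.09.

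Edn1, which encodes the vasoconstrictor and growth factor endothelin-1, read 6.89, 6.56 and 6.87 at 70 min and 8.61, 8.72 and 8.46 at 8 h, and was 3.54-fold higher at 8 h (1.82 ± 0.11, adjusted p = 9.02e-07). Scara5, a scavenger receptor that takes up ferritin, was 3.48-fold higher and had one of the tightest spreads, 6.70, 6.71 and 6.62 against 8.46, 8.42 and 8.54. Sesn3, a sestrin that is a target of FOXO factors, was 2.98-fold higher, from 8.62, 8.68 and 8.54 to 10.14, 10.10 and 10.33. The remaining leading genes were the glucose transporter gene Slc2a12 (3.28-fold), the granzyme gene Gzmc (3.12-fold), the alcohol dehydrogenase gene Adh1c (3.10-fold), a second aldo-keto reductase gene, Akr1c15 (3.09-fold), and the ephrin receptor gene Epha7 (3.02-fold). Gzmc was the most uneven of these at 70 min, at 6.93, 6.43 and 6.04, against 8.00, 8.17 and 8.16 at 8 h. All 24 leading genes kept their direction and their call under each of the 21 other settings in which they were tested. The setting of brighter genes only left out genes whose mean over the 6 arrays was below 5.75. Akr1c14, Map2k6, Cdc6 and Id2 were therefore not tested in it.

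**Figure D2:**
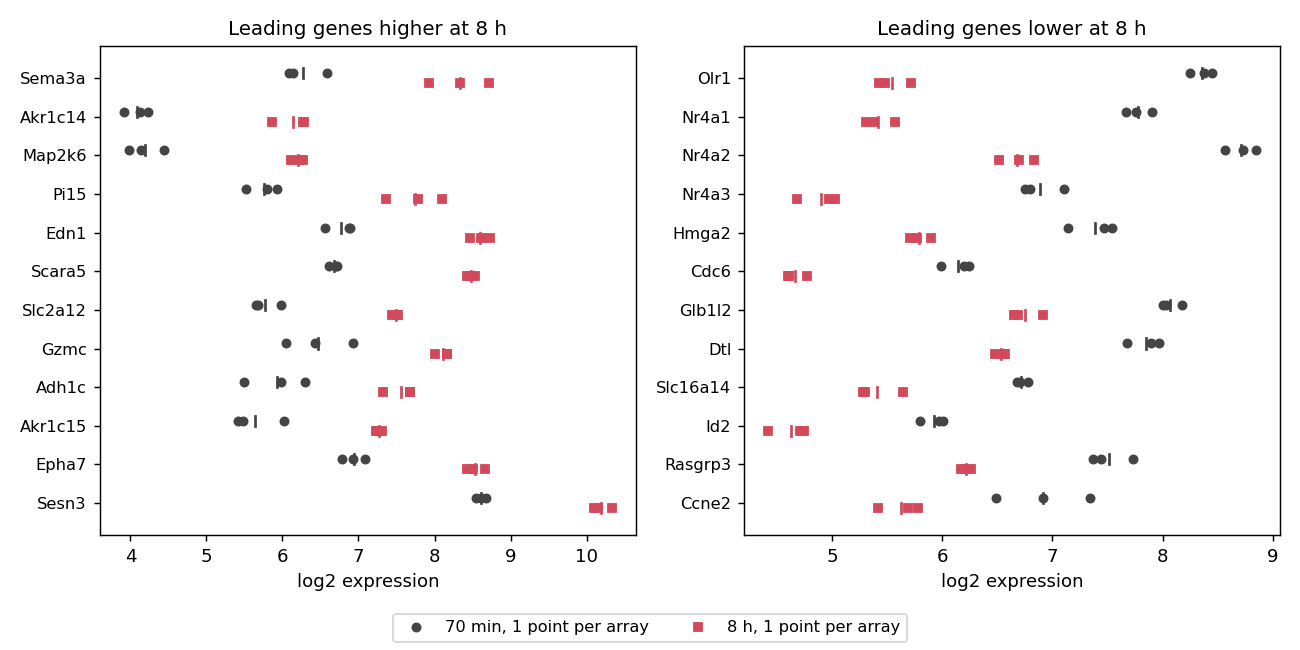
Log2 expression in each array of the 12 leading genes in each direction, with 70 min arrays as circles, 8 h arrays as squares and group means as bars. The 24 genes were chosen among those whose 2 groups do not overlap. Akr1c14 and Map2k6 have the lowest 70 min values.

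The control level separated 2 kinds of gene among these. The 12 leading genes that were higher at 8 h all had a 70 min mean below control: Sema3a averaged 8.42 in control cells, 6.27 at 70 min and 8.33 at 8 h, Edn1 averaged 8.81, 6.77 and 8.60, and Sesn3 averaged 10.10, 8.61 and 10.19. The 12 leading genes that were lower at 8 h all had a 70 min mean above control. Glb1l2, for example, averaged 6.84 in control cells, 8.07 at 70 min and 6.75 at 8 h. Because a comparison with control shares the 70 min or the 8 h arrays with the present one, these values are a description and no agreement between comparisons was tested.

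Of 37 gene lists for pathways and cell types, the one with the largest share of calls was DNA replication. Of its 40 members measured, 27 were lower at 8 h and 0 higher (67.5% called). Over all genes 14.0% were called, 8.38% higher and 5.65% lower, and each list count below stands beside these shares. All 40 had a difference below 0, with a median of −0.49 against −0.031 over all genes. Besides Cdc6, Dtl and Ccne2, the cell cycle factor gene Mybl2 fell by 1.25, from 7.66, 7.84 and 7.76 to 6.59, 6.53 and 6.37. All 6 subunits of the MCM helicase, which unwinds DNA at origins, were called, and so was the sliding clamp gene Pcna; these genes were chosen for mention after their values were seen. Mcm5 read 8.21, 8.13 and 8.05 at 70 min and 7.13, 6.97 and 6.98 at 8 h (−1.10 ± 0.09, adjusted p = 7.98e-06), Mcm6 fell by 0.86 and the other 4 subunits by 0.70 to 0.80. Pcna fell by 0.95, from 9.69, 9.60 and 9.64 to 8.67, 8.60 and 8.79. The 8 h means of Mcm5 and Pcna were near those of control cells, 7.03 against 7.07 and 8.69 against 8.81. Cdc6 averaged 4.66 at 8 h against 5.18 in control cells (−0.52 ± 0.12 SE, adjusted p = 0.236), and Ccne2 5.63 against 5.93. Over the list, the median difference between 8 h and control was 0.01. The number of members called between 8 h and 70 min was 18 to 25 with single arrays left out, and 18 without 8 h replicate 2.

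**Figure D3:**
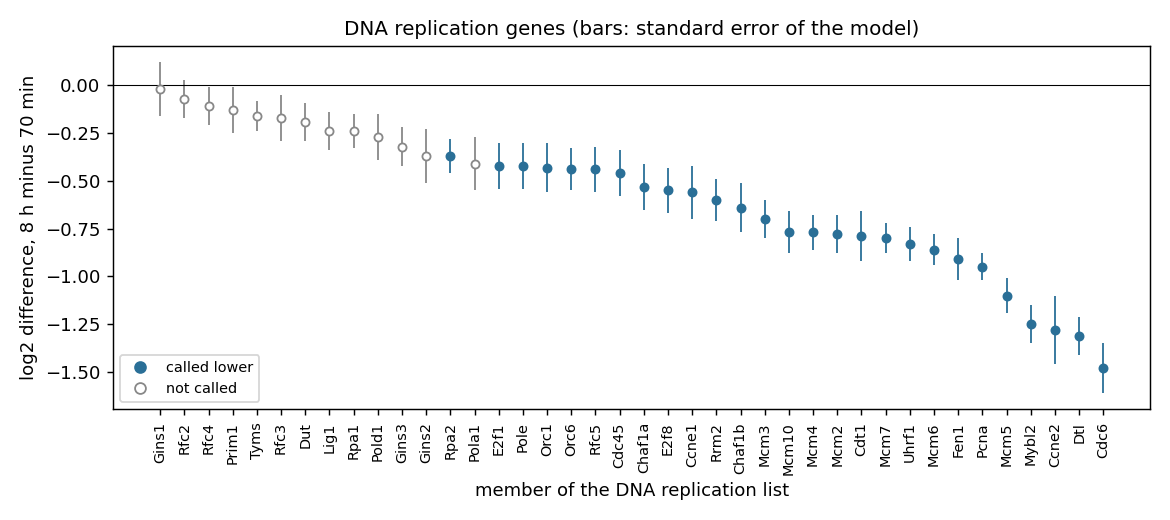
The log2 difference between 8 h and 70 min for the 40 measured members of the DNA replication list, with the standard error of the model as bars and called members filled. All points lie below 0, from −0.02 for Gins1 to −1.48 for Cdc6.

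Genes of mitosis, which E2F and other factors also time, showed fewer calls. Of 41 members 4 were lower at 8 h and 0 higher (9.8% called, against 14.0% of all genes), with a median difference of −0.11. The cyclin gene Ccna2 fell by 0.47 (adjusted p = 0.00448) and Foxm1, a transcription factor of the G2 phase, fell by 0.43 (adjusted p = 0.00796). The Foxm1 call was lost with arrays centred (adjusted p = 0.0576), with the array median as a covariate (0.0658) and without the 3 arrays of high median (0.0608), while the list median was −0.28 and −0.29 in the covariate fit and the fit without those arrays. Mad2l1 (−0.47) and Racgap1 (−0.36) lost their calls without 70 min replicate 1 (adjusted p = 0.0585 and 0.064), 70 min replicate 3 (0.0529 and 0.105), 8 h replicate 2 (0.104 and 0.154) or 8 h replicate 3 (0.0905 and 0.0807). The list had 2 lower without 70 min replicate 3 or 8 h replicate 2, and 2 lower and 2 higher without 70 min replicate 1. Whether the replication and mitosis lists differed from one another was not tested.

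Replication genes are known targets of E2F factors, so promoters of 3 called members that hold an E2F site are shown, each as the 250 bases before the gene's start in RefSeq (build GRCr8), 5′ to 3′ on the gene's strand. The 3 were chosen after their values were seen. Capitals mark the 2 letter strings searched, TTTCCCGC and TTTGGCGC, on either strand. The Dtl window is chr13:105685922-105686171 on the minus strand, that of Mcm5 is chr19:13488563-13488812 on the plus strand and that of Mcm6 is chr13:42404353-42404602 on the minus strand.
Dtl: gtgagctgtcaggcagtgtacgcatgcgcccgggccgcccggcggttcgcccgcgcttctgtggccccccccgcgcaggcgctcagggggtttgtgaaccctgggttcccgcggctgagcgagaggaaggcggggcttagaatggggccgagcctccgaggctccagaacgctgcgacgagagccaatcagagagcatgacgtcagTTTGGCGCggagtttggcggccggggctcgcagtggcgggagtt
Mcm5: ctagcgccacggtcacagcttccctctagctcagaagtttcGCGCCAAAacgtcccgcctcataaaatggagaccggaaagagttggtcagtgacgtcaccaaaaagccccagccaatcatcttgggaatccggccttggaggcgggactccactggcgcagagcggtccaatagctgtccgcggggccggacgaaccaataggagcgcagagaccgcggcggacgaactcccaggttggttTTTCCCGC
Mcm6: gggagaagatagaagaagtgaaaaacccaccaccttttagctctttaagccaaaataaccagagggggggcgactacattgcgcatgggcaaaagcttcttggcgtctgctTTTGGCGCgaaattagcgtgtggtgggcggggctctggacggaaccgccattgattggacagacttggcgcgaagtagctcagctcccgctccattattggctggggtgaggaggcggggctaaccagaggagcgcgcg

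The Dtl match begins at −44 from the start, the Mcm5 matches at −209 and −8, and the Mcm6 match at −139. In windows of 300 bases, 250 before and 50 after the start, 1 of these strings occurred in 12 of the 33 replication genes with a promoter in the table (36.4%), in 7 of the 20 called (35.0%), and in 319 of 14564 tested genes with a promoter (2.2%). The share was 5.2% of 846 promoters of genes called lower and 2.7% of 1244 promoters of genes called higher. A match describes letters and not a bound site. The CCAAT box occurred in 27 of 35 promoters of mitosis genes (77.1%) and in 37.9% of all.

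Ribosome biogenesis and MYC target genes also held more members lower than higher. Of 24 members 11 were lower at 8 h and 1 higher (50% called, against 14.0% of all genes), with a median of −0.30. Nolc1, a nucleolar chaperone of RNA polymerase I transcription, read 8.47, 8.5 and 8.47 at 70 min and 7.76, 7.52 and 7.64 at 8 h (−0.84 ± 0.09, adjusted p = 4.40e-05). Gnl3 (nucleostemin) and Tsr1, both needed for ribosomal subunit assembly, fell by 0.69 each, and the snoRNP core gene Nop56 by 0.64, where a second probe gave −0.32. The single member that was higher was Myc itself, which read 7.72, 7.33 and 7.47 at 70 min and 8.37, 8.14 and 7.82 at 8 h (0.61, adjusted p = 0.0102). Myc thus differed in the direction opposite to that of the 11 called members of its target list. The Myc call was lost without 8 h replicate 2 (adjusted p = 0.0532), which left 9 lower and 0 higher. With the array median as a covariate Myc was at 0.36 and not called (adjusted p = 0.327). Nor was it called in the fit of all probes (adjusted p = 0.0777). Without the 3 arrays of high median its difference was 0.39.

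Immediate early genes, the first wave of transcription after a stimulus, split between both directions. Of 28 members 8 were higher and 6 lower at 8 h (50% called, against 14.0% of all genes). The median was −0.09 and ran from −0.13 to 0.08 over the settings run. Without 70 min replicate 2, and also without 8 h replicate 2, 5 were higher and 6 lower. The Nr4a receptors were the leading falls. Egr1, a zinc finger factor induced by growth signals, went the other way: it read 6.91, 6.96 and 7.11 at 70 min and 8.40, 8.27 and 8.12 at 8 h, 2.41-fold higher (adjusted p = 5.72e-06). Its mean was 8.37 in control cells, so Egr1 at 70 min lay below control while Nr4a1 lay above it. Fos, at 5.84, 5.81 and 5.74 against 6.19, 5.64 and 5.85, and Atf3, at 5.99, 5.88 and 5.86 against 5.89, 6.12 and 5.90, overlapped between groups and were not called (adjusted p = 0.71 and 0.79). The sign of the Fos difference (0.10) turned without 8 h replicate 1 (−0.05) and that of Atf3 (0.06) without 8 h replicate 2 (−0.02). The cAMP response element TGACGTCA was present in 3 of the 18 promoters of this list (16.7%), in 1 of the 10 of called members and in 2.4% of all. The AP-1 site TGANTCA was present in 0 of the 18 and in 6.4% of all.

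Feedback regulators of the MAP kinase pathway also split, 4 of 18 higher and 5 lower (50% called, against 14.0% of all genes). Dusp1, a phosphatase of p38 and JNK, was 2.14-fold higher at 8 h, from 8.04, 8.14 and 8.15 to 9.27, 9.31 and 9.05 (adjusted p = 5.52e-06). Etv5, an ETS factor downstream of ERK, fell by 1.10, from 6.28, 6.58 and 6.40 to 5.58, 5.36 and 5.00. The Ras pathway inhibitor gene Spred2 fell by 0.84 and the ERK phosphatase gene Dusp5 by 0.71 (adjusted p = 0.00125 and 0.00175). The higher and lower counts were 1 and 4 without 70 min replicate 2, 2 and 3 without 70 min replicate 3, 1 and 5 without 8 h replicate 1, 1 and 4 without 8 h replicate 2 and 1 and 5 without 8 h replicate 3.

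The matricellular and cytoskeletal genes that YAP, TEAD and SRF control held 7 members higher and 4 lower of 22, with a median of −0.02. The share called was 50%, against 14.0% of all genes. Ccn1, a secreted matricellular protein, read 9.47, 9.60 and 9.52 at 70 min and 10.95, 10.96 and 10.78 at 8 h (1.37 ± 0.07, adjusted p = 1.47e-07), and Amotl2, a feedback inhibitor of YAP, was 1.95-fold higher. Vcl, the focal adhesion protein vinculin, went from 11.84, 11.79 and 11.91 to 10.83, 10.88 and 10.85, 1.99-fold lower at the same adjusted p. Its 8 h and control means were both 10.85. Ccn2 was higher by 0.22 only, from 10.93, 10.93 and 10.94 to 11.22, 11.08 and 11.15 (adjusted p = 0.0115), and its call was lost without 70 min replicate 2 (adjusted p = 0.0505). The median of the list turned to 0.06 with arrays centred on their medians.

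Promoters of 3 called members with the TEAD core GGAATG, chosen after their values were seen, are given as the 250 bases before each start (RefSeq, build GRCr8), since all 3 hold the core while 2 were higher and 1 lower. Capitals mark the core on either strand. The Ccn1 window is chr2:237225690-237225939 on the minus strand, that of Ccn2 is chr1:22624615-22624864 on the minus strand and that of Vcl is chr15:3404801-3405050 on the minus strand.
Ccn1: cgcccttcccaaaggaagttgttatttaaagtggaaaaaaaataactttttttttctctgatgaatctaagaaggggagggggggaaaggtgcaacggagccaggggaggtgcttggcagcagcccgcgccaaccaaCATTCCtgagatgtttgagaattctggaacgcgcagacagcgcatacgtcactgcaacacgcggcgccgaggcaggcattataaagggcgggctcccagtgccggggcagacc
Ccn2: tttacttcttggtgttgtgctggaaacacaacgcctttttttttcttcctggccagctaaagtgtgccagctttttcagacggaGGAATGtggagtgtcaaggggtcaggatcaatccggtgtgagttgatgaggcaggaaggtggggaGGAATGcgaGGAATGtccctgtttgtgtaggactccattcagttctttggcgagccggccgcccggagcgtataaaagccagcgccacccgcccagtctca
Vcl: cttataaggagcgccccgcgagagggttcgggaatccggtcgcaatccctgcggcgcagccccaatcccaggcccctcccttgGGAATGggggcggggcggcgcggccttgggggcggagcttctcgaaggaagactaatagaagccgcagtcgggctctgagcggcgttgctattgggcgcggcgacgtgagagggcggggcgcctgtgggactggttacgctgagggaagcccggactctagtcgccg

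The Ccn1 core begins at −113 from the start, those of Ccn2 at −166, −101 and −92, and that of Vcl at −167. The core occurred in 10 of the 16 promoters of the list (62.5%), in 7 of the 9 called members with a promoter (77.8%) and in 12.4% of all 14564. It occurred in 11.9% of the promoters of genes called higher and 12.4% of those called lower.

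NRF2 drives enzymes that detoxify electrophiles and make glutathione. Of 24 targets 10 were higher at 8 h and 3 lower (54.2% called, against 14.0% of all genes, median 0.18). Abcc4, an exporter of conjugates and cyclic nucleotides, read 8.09, 8.09 and 8.05 at 70 min and 9.45, 9.33 and 9.45 at 8 h, 2.52-fold higher (adjusted p = 3.19e-07). The epoxide hydrolase gene Ephx1 was 2.28-fold and the prostaglandin reductase gene Ptgr1 2.09-fold higher, and the quinone reductase gene Nqo1 1.46-fold higher, from 11.12, 11.07 and 11.19 to 11.70, 11.64 and 11.66. The haem oxygenase gene Hmox1 was lower at 8 h, 9.56, 9.44 and 9.31 against 9.08, 8.92 and 8.92 (−0.46 ± 0.08, adjusted p = 0.00214). Gclm, a subunit of the glutathione synthesis enzyme, read 7.84, 7.63 and 7.63 against 7.61, 7.61 and 7.75 and was not called (−0.04, adjusted p = 0.825), a sign that turned without 70 min replicate 1. Without 8 h replicate 2 the counts were 7 higher and 1 lower. The glutathione transferase gene Gsta4 (0.72) was near background and lost its call without 70 min replicate 2 (adjusted p = 0.0503), 70 min replicate 3 (0.088) or 8 h replicate 2 (0.0938). The string TGACNNNGC, the core of the antioxidant response element, was in 3 of the 19 promoters of this list (15.8%) and in 13.5% of all.

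Enzymes that remove superoxide and peroxide had 5 of 17 members higher and 0 lower (29.4% called, against 14.0% of all genes). The catalase gene Cat rose by 0.37, from 10.94, 10.88 and 11.02 to 11.22, 11.32 and 11.39 (adjusted p = 0.000961), and Sod1, the cytosolic superoxide dismutase, by 0.42 (adjusted p = 0.0028). The peroxiredoxin genes Prdx1 (0.31) and Prdx6 (0.26) lost their calls when single arrays were left out: leaving out 70 min replicate 2 gave adjusted p = 0.156 and 0.0991, 70 min replicate 3 gave 0.191 and 0.146, 8 h replicate 1 gave 0.0797 and 0.0865, and 8 h replicate 2 gave 0.102 and 0.1, and for Prdx1 8 h replicate 3 gave 0.101. The count was 2 without any 1 of 70 min replicates 2 and 3 and 8 h replicates 1 and 2. In the metallothionein and zinc list 2 of 8 were higher and 1 lower (37.5% called). The zinc importer gene Slc39a14 fell by 0.44, and Mt1 and Mt2A differed by 0.28 and 0.21, calls that were lost without 70 min replicate 3 (adjusted p = 0.0913 and 0.0794) or 8 h replicate 2 (0.12 and 0.127), when 0 members were higher, without 70 min replicate 2 (0.103 and 0.0587), and for Mt1 without 8 h replicate 1 (0.0877). A second probe gave 0.21 for Mt1 and 0.41 for Mt2A, and on the mean of its probes Mt1 was not called (0.345).

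Of the called protein folding genes, more were lower than higher at 8 h. In the unfolded protein response, by which the endoplasmic reticulum makes more chaperones, 6 of 21 were lower and 2 higher (median −0.15). The share called was 38.1%, against 14.0% of all genes. Hspa5, its main chaperone, went from 11.77, 11.73 and 11.68 to 11.21, 11.23 and 11.29 (−0.48 ± 0.05, adjusted p = 2.81e-05), the transcription factor gene Xbp1 fell by 0.49, the secreted factor gene Manf by 0.45 and the cochaperone gene Dnajb9 by 0.41. Among 16 chaperones of the cytosol and mitochondria 3 were lower and 1 higher (25% called). The mitochondrial chaperonin gene Hspd1 read 9.46, 9.43 and 9.40 against 8.90, 8.83 and 8.81, and Hspa4, a nucleotide exchange factor, fell by 0.49 (adjusted p = 8.42e-05 and 0.000157). A second Hspd1 probe gave −0.43. The lower and higher chaperones were 3 and 2 without 70 min replicate 1, 2 and 0 without 70 min replicate 2, 3 and 0 without 70 min replicate 3, 5 and 1 without 8 h replicate 1, and 2 and 2 without 8 h replicate 3. In the unfolded protein response 1 was higher without 70 min replicate 2 or 3 or 8 h replicate 1 or 2.

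The ATF4 pathway, which raises amino acid supply and, when prolonged, pro-apoptotic factors, had 4 of 27 higher and 5 lower. The share called was 33.3%, against 14.0% of all genes. Those higher included Ddit3 (CHOP), at 7.82, 7.69 and 7.87 against 8.65, 8.68 and 8.56 (0.84 ± 0.08, adjusted p = 2.97e-05), the glutathione-degrading enzyme gene Chac1 (0.56, adjusted p = 0.00256) and the pseudokinase gene Trib3 (0.49, adjusted p = 0.00723, and 0.054 without 8 h replicate 2). The control means of Ddit3, Chac1 and Trib3 were 8.47, 8.84 and 7.50, beside 8 h means of 8.63, 8.79 and 7.67. None of them was called between 8 h and control in the fit of all 12 arrays. Without 8 h replicate 2 the list had 2 higher and 4 lower. The cationic amino acid transporter gene Slc7a1 fell by 0.51. All 5 called members of 30 proteasome genes were lower (16.7% called, against 14.0% of all genes). Psmd12 read 9.49, 9.44 and 9.39 against 9.01, 9.07 and 9.08 (−0.39, adjusted p = 0.0017). The proteasome count was 1 without 70 min replicate 1 or 2 or 8 h replicate 1 or 2, 3 without 70 min replicate 3 and 2 without 8 h replicate 3.

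The called genes of lipid synthesis were all higher at 8 h. The share called was 47.1% in cholesterol synthesis and 33.3% in fatty acid synthesis, against 14.0% of all genes. In cholesterol synthesis 8 of 17 were higher and 0 lower (median 0.24), led by Fdps, which makes farnesyl diphosphate, at 8.36, 7.73 and 7.69 against 8.95, 8.74 and 8.57 (0.83 ± 0.16, adjusted p = 0.00337). Fdft1, squalene synthase, rose by 0.65 and Lss, lanosterol synthase, by 0.53 (adjusted p = 0.000237 and 0.0045). The count was 3 without 70 min replicate 2, 3 without 70 min replicate 3, 5 without 8 h replicate 1 and 3 without 8 h replicate 2, and 1 member was lower without 8 h replicate 3. With the array median as a covariate 1 member was called, and without the 3 arrays of high median 2 were. Fdps was then at 0.37 (adjusted p = 0.143) and 0.39 (0.132), and Lss lost its call with the covariate (0.0974). In fatty acid synthesis 4 of 12 were higher and 0 lower, with 4 higher and 0 lower also without each single array. The desaturase gene Fads2 rose 2.60-fold, from 6.54, 6.53 and 5.99 to 7.80, 7.79 and 7.59, and Fads1 and Scd2 rose 2.09- and 2.10-fold. The acetyl-CoA synthetase gene Acss2 rose 1.62-fold. The sterol element TCACNCCAC was in 0 of 13 promoters of the cholesterol list and in 1.1% of all.

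Fatty acid oxidation and PPAR targets had the most calls in the higher direction, 14 of 27, with 2 lower (median 0.25). The share called was 59.3%, against 14.0% of all genes. Ech1, a peroxisomal and mitochondrial dienoyl-CoA isomerase, read 7.79, 7.85 and 7.60 at 70 min and 8.81, 8.64 and 8.52 at 8 h (0.91 ± 0.10, adjusted p = 6.20e-05). Acadm, the medium-chain dehydrogenase, rose by 0.77, Pdk4, a kinase that shuts off pyruvate dehydrogenase, by 0.66 and Eci1 by 0.63. Counts were 10 higher and 0 lower without 70 min replicate 2, and 8 and 1 without 70 min replicate 3 and also without 8 h replicate 2. With the array median as a covariate, 5 members in all were called. None of 24 oxidative phosphorylation genes was called by limma at an adjusted p under 0.05 (4 at an unadjusted p under 0.05), and the median was 0.09. The largest difference there was 0.32, in Cox5b (adjusted p = 0.108). Without 70 min replicate 1 there were 2 higher, without 8 h replicate 3 there was 1, and 1 was called with the covariate and also without the 3 arrays of high median.

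Glycolytic and hypoxia-inducible genes were more often lower (7 of 24) than higher (3 of 24), with a median of −0.13. The share called was 41.7%, against 14.0% of all genes. Without 70 min replicate 2 there were 6 lower and 1 higher, and without 8 h replicate 1 there were 7 and 1. Slc16a3, the lactate exporter MCT4, read 6.95, 7.08 and 6.96 at 70 min and 5.83, 6.03 and 5.68 at 8 h, 2.23-fold lower (adjusted p = 4.32e-05). Hk2, the inducible hexokinase, went from 8.03, 7.97 and 8.02 to 6.99, 7.07 and 6.97, and Egln3, an oxygen-sensing prolyl hydroxylase, fell by 1.0. The muscle phosphofructokinase gene Pfkm was higher, by 0.77. The control means of Slc16a3, Hk2 and Egln3 were 6.04, 6.84 and 4.89, beside 8 h means of 5.84, 7.01 and 5.10. The hypoxia response core ACGTG was in 12 of 21 promoters of the list (57.1%), in 21.8% of all, and in 29.8% of those of genes called lower.

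**Figure D4:**
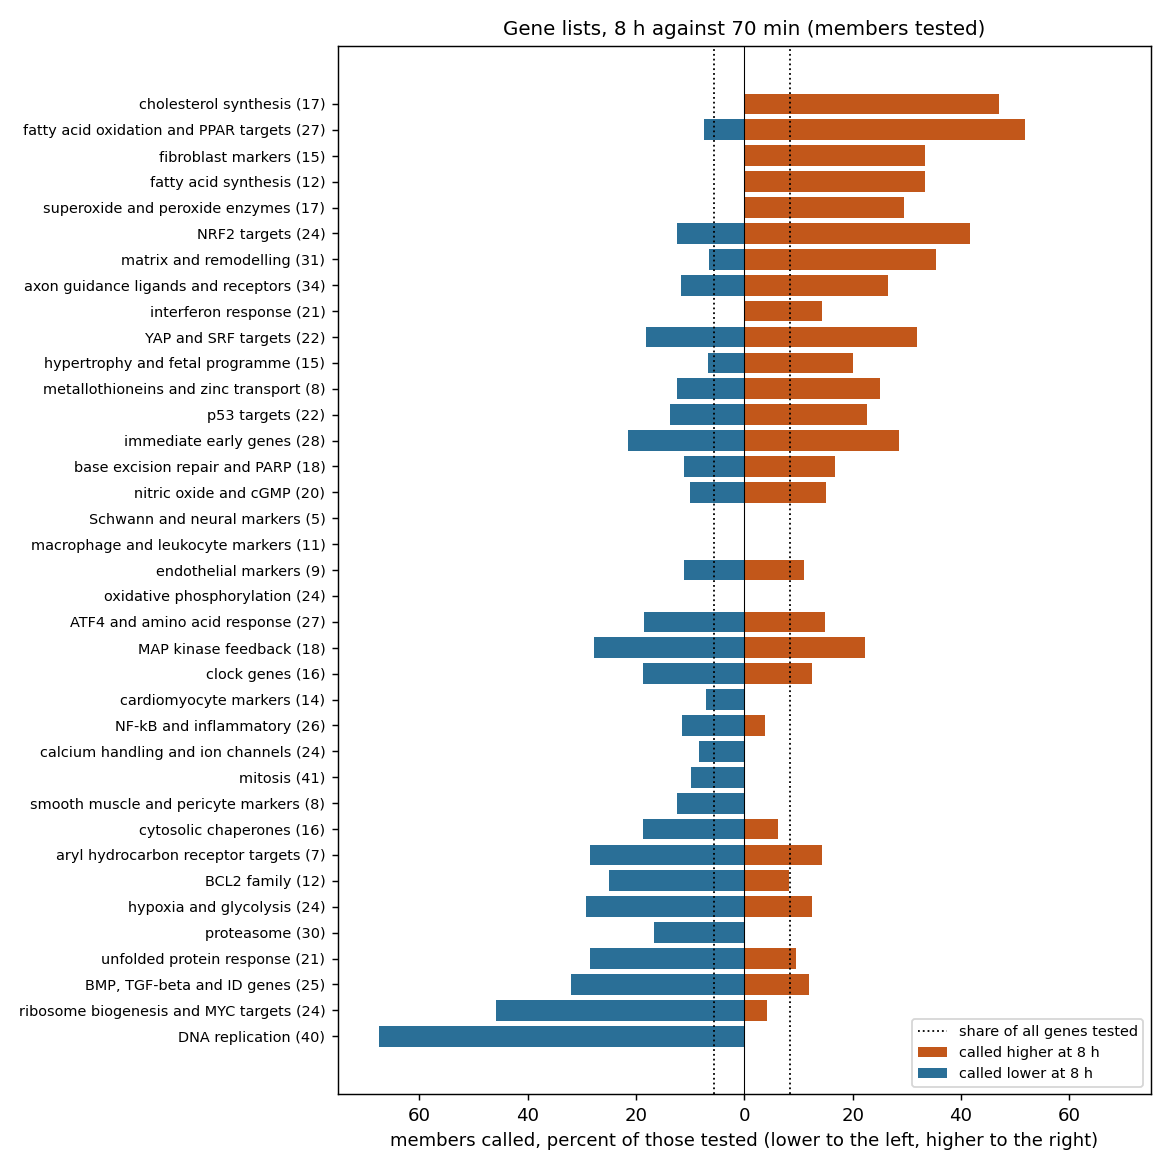
For each of 37 gene lists, the percent of measured members called higher at 8 h (to the right) and lower (to the left), with the share of all genes as dotted lines at 8.38% and 5.65%. DNA replication reaches farthest to the left and fatty acid oxidation and PPAR targets farthest to the right.

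The array median as a covariate, which left 818 of 2550 calls over all genes, lowered most list counts too. Calls went from 27 to 18 in DNA replication, from 13 to 6 in NRF2 targets, from 12 to 6 in ribosome biogenesis, from 8 to 3 in the unfolded protein response, from 9 to 3 in the ATF4 list, from 10 to 5 in hypoxia and glycolysis, from 9 to 4 in MAP kinase feedback and from 13 to 8 in axon guidance. They went from 5 to 1 in superoxide and peroxide enzymes, from 3 to 0 in metallothioneins, from 5 to 1 in the proteasome and from 4 to 1 in the NF-kB list, while fatty acid synthesis kept a count of 4. In all, 48 of the 144 named called genes lost their calls with the covariate. Among them, with adjusted p-values from limma, were Sod1 (0.131), Slc39a14 (0.11), Manf (0.125), Dnajb9 (0.0666), Chac1 (0.0633) and Dusp5 (0.0624). Pdk4 (0.0869), Eci1 (0.12), Mef2c (0.0824), Sema3d (0.0554), Bcl2l11 (0.0554) and Myh6 (0.176) were others. So were Trib3 (0.102), Gdf15 (0.186), Cdkn1a (0.21), Ccn2 (0.144), Jph2 (0.0769), Des (0.222) and Bmp4 (0.139). Prdx1 (0.846), Prdx6 (0.63), Mt1 (0.336), Mt2A (0.284) and Racgap1 (0.0782) also lost theirs. Omd lost its call without the 3 arrays of high median (0.0515).

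Guidance and matrix genes held several of the largest rises. Of 34 axon guidance ligands and receptors 9 were higher and 4 lower (38.2% called, against 14.0% of all genes). The median was 0.03, so the list as a whole was near the median of all genes. There were 8 higher and 2 lower without 70 min replicate 3, and 7 and 2 without 8 h replicate 2. Besides Sema3a and Epha7, the secreted semaphorin gene Sema3d rose 2.39-fold, from 8.35, 7.91 and 8.30 to 8.89, 9.51 and 9.93, and Slit2, a ligand of ROBO receptors, rose 2.08-fold, from 8.11, 7.99 and 7.93 to 8.94, 9.14 and 9.12. Of 31 matrix and remodelling genes 11 were higher and 2 lower (41.9% called, median 0.08). Counts were 10 higher and 1 lower without 70 min replicate 3 or 8 h replicate 2, and without 8 h replicate 1 there were 12 and 1. The 4 leading rises there were all small leucine-rich proteoglycans, which bind collagen fibrils. Lum read 7.89, 7.52 and 7.50 against 9.02, 9.27 and 9.31 (1.57 ± 0.11, adjusted p = 3.52e-06), Omd rose 2.62-fold, Dcn 2.31-fold and Fmod 2.26-fold. The 70 min mean of Omd was 4.59, near the median of unnamed probes (4.33), and its 70 min replicate 3 read 4.27. Lum and Dcn are also in the fibroblast list, where 5 of 15 members were higher and 0 lower. The protease gene Mmp2 rose by 0.55 and Col3a1 by 0.43. The brightest fibroblast markers differed little, Vim 1.03-fold, Col1a1 1.03-fold and Fn1 0.976-fold, and the part of cell composition in these differences was not tested.

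Marker lists of single cell types were called at shares from 0% to 33.3%, against 14.0% of all genes. Of 14 cardiomyocyte markers Myh6 alone was called, at 3.83, 4.51 and 4.09 against 3.43, 3.12 and 3.17 (−0.91, adjusted p = 0.00453), with 5 of these 6 values below the median of unnamed probes. Of 9 endothelial markers 2 were called (22.2%): the VEGF receptor gene Flt1 fell by 0.95, from 7.12, 6.83 and 6.78 to 6.09, 5.94 and 5.86, and the angiopoietin receptor gene Tek rose by 0.81. The list had 2 lower and 1 higher without 70 min replicate 1. Of 8 smooth muscle and pericyte markers Des fell by 0.58, a call lost without 70 min replicate 3 (adjusted p = 0.0514) or 8 h replicate 2 (0.0713). Of 11 macrophage and leukocyte markers none was called by limma (2 at an unadjusted p under 0.05), with 1 lower without 70 min replicate 1, and of 5 Schwann and neural markers none was called (0 at an unadjusted p under 0.05). The nearest of these were Lyz2 (0.42, adjusted p = 0.0708) and C1qc (−0.42, adjusted p = 0.116).

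BMP and TGF-beta signalling had 8 of 25 members lower and 3 higher. The share called was 44% there and 26.7% in the hypertrophy and fetal list, against 14.0% of all genes. The inhibitors of differentiation, direct BMP targets, led: Id2 read 6.01, 5.80 and 5.97 at 70 min and 4.75, 4.71 and 4.42 at 8 h, and Id1 read 7.55, 7.91 and 7.82 and then 6.76, 6.61 and 6.43, 2.23-fold lower (adjusted p = 4.67e-05). The ligand gene Tgfb3 had almost no spread, 11.25, 11.26 and 11.27 against 10.40, 10.44 and 10.33, and was 1.83-fold lower (adjusted p = 7.19e-07). Bmper, an extracellular BMP modulator, fell by 0.83. In the hypertrophy and fetal list, where Edn1 led the 3 of 15 members that were higher, Mef2c, a cardiac transcription factor, was the 1 lower (−0.62, adjusted p = 0.00242), with 2 lower without 70 min replicate 1. The natriuretic peptide genes were not called: Nppa read 4.98, 5.30 and 5.11 against 4.95, 4.72 and 4.73 (adjusted p = 0.149) and Nppb 6.07, 6.25 and 6.14 against 6.0, 5.99 and 6.24 (adjusted p = 0.716). Among 24 calcium handling and channel genes 2 were lower and 0 higher (8.3% called, against 14.0% of all genes). The calcium pump gene Atp2a2 fell by 0.43 (adjusted p = 0.000263) and Jph2, which tethers the sarcoplasmic reticulum, by 0.36, a call lost without 8 h replicate 2 (adjusted p = 0.0659) or 8 h replicate 3 (0.0537), which each left 1 call.

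Genes of nitric oxide handling, of interest because SIN-1 releases nitric oxide, had 3 of 20 higher and 2 lower. The share called was 25%, against 14.0% of all genes. The 2 enzymes that degrade the endogenous nitric oxide synthase inhibitor dimethylarginine moved in opposite directions. Ddah2 rose 2.42-fold, from 7.53, 7.44 and 7.39 to 8.75, 8.77 and 8.67 (adjusted p = 1.49e-06), and Ddah1 was 1.58-fold lower, from 11.12, 11.16 and 11.18 to 10.57, 10.43 and 10.49 (adjusted p = 7.12e-06). Both 8 h means were near control, at 8.73 against 8.63 for Ddah2 and 10.5 against 10.47 for Ddah1. The natriuretic peptide clearance receptor gene Npr3 rose 1.93-fold. Without 8 h replicate 2, and also without 8 h replicate 3, 2 members were higher and 1 lower, and without 70 min replicate 3 there were 3 and 1.

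Of 12 BCL2 family genes 3 were lower and 1 higher (33.3% called, against 14.0% of all genes). The pro-apoptotic Bcl2l11 (BIM) rose 2.28-fold, from 6.36, 5.5 and 6.16 to 7.12, 7.17 and 7.30 (adjusted p = 0.000787), and the anti-apoptotic Bcl2 fell by 0.76, from 8.11, 7.82 and 8.26 to 7.05, 7.54 and 7.29 (adjusted p = 0.00234). Bok, another pro-apoptotic member, fell by 0.72. The control means of Bcl2l11, Bcl2 and Bok were 7.04, 7.65 and 6.33, beside 8 h means of 7.20, 7.30 and 6.24. None of them was called between 8 h and control in the fit of all 12 arrays. Among 22 p53 targets 5 were higher and 3 lower (36.4% called). The death receptor gene Fas rose by 0.69 and the stress sensor gene Gadd45a by 0.57 (adjusted p = 0.000852 and 0.000274), while the TRAIL receptor gene Tnfrsf10b fell by 0.60. The cell cycle inhibitor gene Cdkn1a fell by 0.24, from 10.50, 10.47 and 10.57 to 10.36, 10.21 and 10.25 (adjusted p = 0.0179, and 0.0834 without 70 min replicate 3 or 0.115 without 8 h replicate 2). The stress cytokine gene Gdf15 fell by 0.57, from 6.72, 6.83 and 6.92 to 6.51, 6.07 and 6.17 (adjusted p = 0.0102, and 0.0549 and 0.0702 without the same arrays). Without either array 1 member of the list was lower.

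Of 18 base excision repair and PARP genes 3 were higher and 2 lower (27.8% called, against 14.0% of all genes). Polb, the repair polymerase, rose by 0.70 and the end-joining factor gene Aplf by 0.80 (adjusted p = 0.00361 and 0.0012), while the thymine glycosylase gene Tdg fell by 0.50 (adjusted p = 0.00295). Without 70 min replicate 2, 8 h replicate 2 or 8 h replicate 3 there were 2 higher and 1 lower, and without 70 min replicate 1 there were 3 and 1. Adjusting for the array median left 1 call in the list. Polb was then at 0.33 (adjusted p = 0.152), and Aplf (0.0562) and Tdg (0.0649) lost their calls. Without the 3 arrays of high median 2 were called, and Polb was at 0.35 (0.0635) and Tdg at −0.46 (0.051). Of 7 aryl hydrocarbon receptor targets 2 were lower and 1 higher: Cyp1b1, which oxidises aromatic compounds, was 2.21-fold lower, from 8.81, 8.72 and 8.76 to 7.62, 7.48 and 7.77, the receptor gene Ahr fell by 0.53, and Nqo1, shared with the NRF2 list, was the member that rose.

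Of 16 clock genes 2 were higher and 3 lower (31.2% called, against 14.0% of all genes). Dbp, an output gene of the clock, rose 1.97-fold, from 7.75, 7.70 and 7.89 to 8.78, 8.78 and 8.71, Per3 rose by 0.60, and the repressor gene Bhlhe40 was 2.04-fold lower, from 9.08, 9.01 and 8.94 to 8.07, 7.97 and 7.89 (adjusted p = 5.72e-06). Without 70 min replicate 1, and also without 70 min replicate 3, 2 were higher and 1 lower, and without 8 h replicate 3 there were 3 and 1. The E-box CACGTG was in 4 of 15 promoters of clock genes (26.7%) and in 7.9% of all. Of 26 NF-kB targets and inflammatory genes 3 were lower and 1 higher, 15.4% called against 14.0% of all genes, and Il1rl1, the interleukin-33 receptor, fell by 0.25 (adjusted p = 0.00572, and 0.152 with arrays centred). Their counts were 2 lower and 0 higher without 70 min replicate 2 or 8 h replicate 2, and 1 and 0 without 70 min replicate 3 or 8 h replicate 3. Interferon genes had 3 of 21 higher and 0 lower, 14.3% called against 14.0% of all genes. Parp14 had the largest difference (0.58, adjusted p = 0.00723). The list had 1 higher without 70 min replicate 2, 70 min replicate 3 or 8 h replicate 2. None was called by limma with the array median as a covariate or without the 3 arrays of high median, where Parp14 had adjusted p = 0.115 and 0.063.

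The 4 h arrays, which took no part in the comparison, show how far each gene had moved by then. The 4 h mean lay between the 70 min and 8 h means in 2121 of the 2550 called genes (83.2%), against 47.3% of all genes. A called gene has a wide interval for the 4 h mean to fall in, so the 2 shares are given as a description. By 4 h a median of 58.9% of the difference was present in genes called higher and 54.5% in genes called lower. Of all genes 1386 (7.63%) were called between 70 min and 4 h and 637 (3.51%) between 4 h and 8 h in a fit of all 12 arrays. Replication genes differed in this: Dtl averaged 7.85, 7.57 and 6.54 at 70 min, 4 h and 8 h, while Cdc6 averaged 6.14, 5.27 and 4.66 and Ccne2 6.91, 6.14 and 5.63. Nr4a1 was already at 5.11 at 4 h, after 7.78 at 70 min and before 5.42 at 8 h.

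In a smaller number of called genes the 4 h mean lay outside the range of the other 2 times. Genes called higher were above their 8 h mean at 4 h in 168 cases and below their 70 min mean in 48, and genes called lower were below their 8 h mean in 154 cases and above their 70 min mean in 59. Ankrd1, a stress-responsive cardiac and YAP target, averaged 8.71 at 70 min, 7.74 at 4 h and 9.20 at 8 h, with single 8 h values of 9.25, 9.23 and 9.12 above 8.79, 8.70 and 8.65 at 70 min (adjusted p = 0.000708). Bcl2l11 averaged 6.01, 7.85 and 7.20 and Lgr4, a receptor for R-spondins, 8.44, 9.93 and 9.45, both highest at 4 h. Among genes called lower, the actin-associated repressor gene Lmcd1 averaged 8.30, 6.64 and 7.36 and the heart development gene Lbh 10.33, 9.09 and 9.77, both lowest at 4 h. Phlda1 followed the same course at 8.35, 6.86 and 7.88, and its call between 8 h and 70 min was lost without 70 min replicate 1 (adjusted p = 0.057), 70 min replicate 3 (0.0552) or 8 h replicate 3 (0.0612). These genes were picked for that course, so it is a description. Bmp4 averaged 9.41, 8.92 and 9.69, and its call was lost without 8 h replicate 2 (adjusted p = 0.0788).

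**Figure D5:**
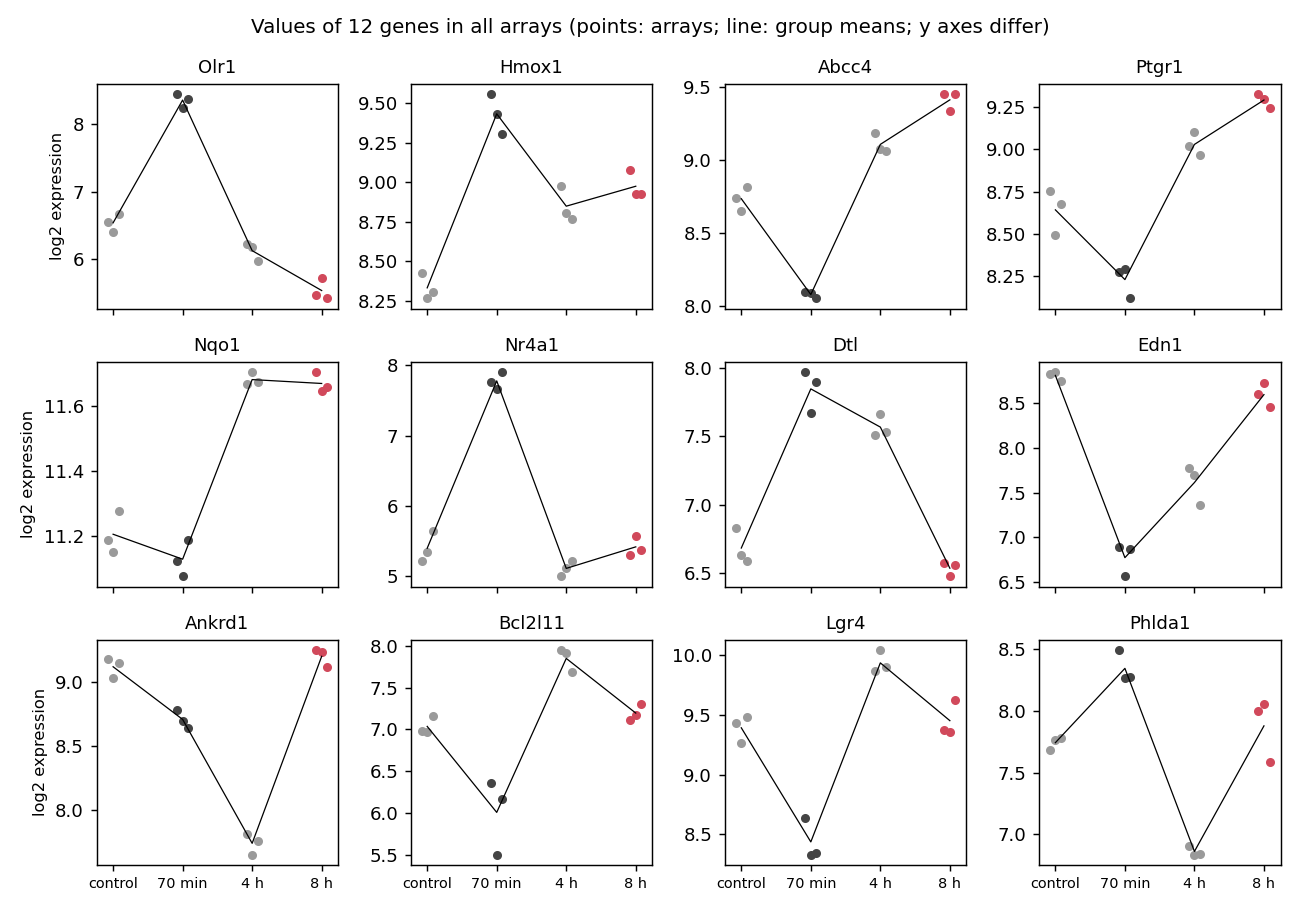
Log2 expression of 12 genes in all 12 arrays by group, with a point per array and a line through the group means, and a separate vertical axis for each gene. Hmox1, Abcc4, Ptgr1 and Nqo1 end above control at 8 h and Olr1 below it, while Nr4a1, Dtl and Edn1 end near it.

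Few genes differed between 8 h and control in the fit of all 12 arrays: 5 of 18166 (0.0275%) were called, against 2647 (14.6%) between 70 min and control. All 5 were also called between 8 h and 70 min, a comparison that shares the 8 h arrays. Abcc4, Ptgr1 and Nqo1 were higher than at 70 min and higher than in control cells, by 0.68, 0.65 and 0.47 over control (adjusted p = 0.000113, 0.000772 and 0.000113). Abcc4 averaged 8.73 in control cells, 8.08 at 70 min, 9.11 at 4 h and 9.41 at 8 h, and Ptgr1 averaged 8.64, 8.23, 9.03 and 9.29, so both were below control at 70 min. Nqo1 averaged 11.20, 11.13, 11.68 and 11.67 and had its 8 h level by 4 h. Hmox1 had come down from 70 min but stayed 0.64 above control (adjusted p = 0.00152), at 8.33, 9.43, 8.85 and 8.98. Olr1 averaged 6.54, 8.36, 6.13 and 5.54 and ended 1.0 below control on the log2 scale (adjusted p = 0.000551), after a 70 min level above it.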

How the data were processed

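RNA from cells treated with SIN-1 for 70 min or 8 h (6 of 12 arrays) was amplified, biotin-labelled and hybridised to one-colour whole-transcript arrays. The authors deposited log2 expression values; RMA and Affymetrix Expression Console (version 1.3.1.187) are named in the submitters' processing notes. The log2 scale is inferred from the values, which run from 1.19 to 13.63. RMA equalises distributions between arrays, so a change in total RNA per cell is removed.

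The platform table gave 1 symbol to 18511 of 36685 probes and several to 575, and did not list 17599. In all, 291 genes had more than 1 probe and 18166 were tested. The 6 arrays were fitted in limma 3.58.1 (R 4.3.3, eBayes with trend, 4 residual degrees of freedom before moderation), with two-sided p-values adjusted by Benjamini-Hochberg over all genes and called under 0.05. The median SE was 0.131, and the number of arrays limits the precision. Levels in control and 4 h cells come from a fit of all 12 arrays. The calculation was tested on simulated data. Promoters of 14564 tested genes matched RefSeq (build GRCr8) by symbol or identifier. The replicate numbers did not pair the arrays: same-numbered arrays correlated at −0.185, −0.076 and 0.05 in their deviations.

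Genes were named by rule: the 12 called genes with the largest change in each direction whose groups did not overlap and whose brighter mean was at least 5.75, up to 4 leading called members of each list, 14 stress and cardiac genes always, up to 5 per direction with the 4 h mean farthest outside, and genes also called at 8 h against control. Members and lists were chosen with earlier results of these data known. Alternatives are listed in the closing section. Figures used matplotlib 3.10.9 in Python 3.11.15.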

Additional observations from a re-analysis of the deposited data

How the results depend on the processing

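The number of genes called between 8 h and 70 min (2550, with 1523 higher, 1027 lower and 129 at least 2-fold apart) ran from 1307 to 3314 with single arrays left out, with 777 to 1911 higher, 530 to 1403 lower and 119 to 162 genes called and at least 2-fold apart. It was 1645 (972 higher, 673 lower) in eBayes without trend, 3840 with array weights (1677 lower), 818 with the array median as a covariate (383 higher, 435 lower), and 1181 with the 3 arrays of high median left out (586 higher, 595 lower). With arrays centred on their medians 527 were lower. Fitting all probes gave 1594 calls (967 higher, 627 lower, 201 at least 2-fold apart) over more probes. With all probes in the prior but adjustment over named genes alone, a setting chosen after seeing the data, 1567 were called (941 higher, 626 lower). Stricter calls gave 1252 at an adjusted p under 0.01 (755 higher, 497 lower), 763 with at least 1.5-fold added (496 higher, 267 lower) and 783 with an unadjusted p and at least 1.5-fold (504 higher, 279 lower). The cause of the other moved counts was not tested. The settings not listed stayed within 1.5 times. The replicate block gave 2052 calls in 6 arrays (1271 higher, 781 lower) and 2889 in all 12 (1752 higher, 1137 lower), where the numbers do not pair the arrays. Of the 144 named called genes, 90 kept their call under each of the 21 alternatives that tested them. The alternative of brighter genes only did not test dimmer genes. Small uncalled differences turned sign: with single arrays left out Fos ran from −0.05 to 0.22, Atf3 from −0.02 to 0.1 and Gclm from −0.09 to 0.03. It also turned for Atf3, to −0.03 with the covariate and −0.02 without the arrays of high median, Gclm, to 0.04 when centred, and Nppb, to 0 when centred, 0.02 with the covariate and 0 without the arrays of high median; the cause was not tested. Weak signal over background limits Akr1c14, Map2k6, Gsta4 and Myh6.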

Other observations

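Probes without a gene name were outside the comparison. In a fit of all 36685 probes, 330 of the 17599 unnamed probes (1.9%) were called between 8 h and 70 min, 218 higher and 112 lower, against 1264 of the listed probes (6.6%). The median level of the unnamed probes was 4.33.

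Correlations between arrays over the genes tested, without the unnamed probes, were 0.9906 to 0.993 within the 70 min group. They were 0.9923 to 0.995 within the 8 h group and 0.9836 to 0.9892 between the groups.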
